A study of Mus musculus with 35 samples.

Results

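The thyroid hormone receptor genes Thra and Thrb and the deiodinase gene Dio2 were followed in cultured mouse inguinal adipocytes. These 3 genes were taken by name: of 17958 transcript clusters on the array, 15621 carried a single gene symbol, and 1 of them carried Thra, 1 Thrb and 1 Dio2. All 3 clusters entered every test, with no filter on low signal.

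Precursor cells from inguinal subcutaneous fat of SV129 and C57BL/6J mice were grown in culture, and RNA of 35 cultures was hybridised to 1 exon array each. The groups were ROSI (1 µM rosiglitazone, a PPARγ agonist, 7 days; 5 SV129 and 4 C57BL/6J cultures), NE (1 µM norepinephrine, 7 days; 5 cultures of each strain), control (no drug, 7 days; 4 of each strain) and untreated cells harvested on day 3 (4 of each strain). Drugs were given from the start of culture, and all groups shared the medium with serum and insulin. The treatment note of the deposit names both drugs for every culture, so the drug was taken from each culture's own treatment entry. Nothing in the labels says whether replicates came from separate animals, so the p-values measure the spread between cultures.

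Thyroid hormone acts through nuclear receptors encoded by Thra and Thrb, which bind DNA mostly as partners of the retinoid X receptors. They hold corepressors without hormone and coactivators with it. The enzyme made from Dio2 removes an outer-ring iodine from thyroxine and so produces the active hormone, triiodothyronine, inside the cell. In brown fat it is induced by norepinephrine through cAMP, and the hormone it makes adds to thermogenesis.

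The stretches just before the transcription starts of Dio2 and Thrb are shown because Dio2 is known as a cAMP-responsive gene and the ROSI arm acts on a nuclear receptor. They come from RefSeq (GRCm38.p6), span the 250 bases before a start, and run 5′ to 3′ on the strand of the gene. Dio2 and Thrb matched the RefSeq table, Dio2 with 1 start and Thrb with 2, and Thra is named only. Capitals mark TGACGTCA, the full cAMP response element, or AGGTCA, the half-site of many nuclear receptors, each searched on both strands.
Dio2, chr12:90739039-90739288, minus strand: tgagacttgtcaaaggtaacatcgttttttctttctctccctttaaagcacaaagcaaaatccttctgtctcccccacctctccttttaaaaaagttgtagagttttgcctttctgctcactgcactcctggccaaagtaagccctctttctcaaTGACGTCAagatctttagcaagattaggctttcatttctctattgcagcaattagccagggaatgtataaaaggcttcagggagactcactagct
Thrb, first start, chr14:17660710-17660959, plus strand: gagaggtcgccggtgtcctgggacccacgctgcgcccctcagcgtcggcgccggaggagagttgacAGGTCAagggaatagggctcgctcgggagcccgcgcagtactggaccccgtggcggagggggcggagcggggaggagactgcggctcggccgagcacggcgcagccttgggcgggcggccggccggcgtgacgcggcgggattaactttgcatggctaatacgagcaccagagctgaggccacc
Thrb, second start, chr14:17981394-17981643, plus strand: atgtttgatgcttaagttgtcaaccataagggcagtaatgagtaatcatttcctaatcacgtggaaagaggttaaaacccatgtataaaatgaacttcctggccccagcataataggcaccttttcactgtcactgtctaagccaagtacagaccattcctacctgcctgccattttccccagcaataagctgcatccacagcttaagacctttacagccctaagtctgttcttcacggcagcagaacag
The Dio2 stretch held TGACGTCA from 95 to 88 bases before the start, and this motif was in 508 of 32851 such stretches (1.55%). The first Thrb stretch held AGGTCA from 184 to 179 bases before the start, a motif found in 4607 stretches (14.0%), and the second Thrb stretch held neither. A direct repeat of AGGTCA with 1 or 4 bases between the copies was in none of the 3 stretches, and in 0.0335% and 0.0152% of all stretches. A match is a run of letters, not evidence of binding.

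Signal is given as log2 intensity after RMA, in which a difference of 1 means a doubling. Array medians lay between 8.03 and 8.24, the lower quartile of all values was 6.44, and correlations between arrays ranged from 0.975 to 0.998. The adipocyte genes Adipoq, Fabp4, Pparg and Plin1 were above 11 on all arrays, whereas Lep, which encodes leptin, lay at 5.21 on average. Along the first principal component of the 17 control and ROSI arrays, which held 59.8% of the variance, SV129 ROSI replicate 1 sat at 0.10 and replicate 6 at 0.459 of the way from the control mean (0) to the mean of the other ROSI arrays (1). The other ROSI arrays sat between 0.879 and 1.09. Member differences that rest on the SV129 ROSI cultures are therefore also given without replicates 1 and 6. Both were picked on the axis that separates control from ROSI, so leaving them out selects on the response. These values are descriptions and add no support of their own. The list, marker, profile and correlation results below include these replicates and were not recomputed without them. Where groups of a gene are said below not to overlap, the share of all clusters that separate likewise was not counted.

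Thrb, which encodes the receptor that dominates in liver and pituitary, was the member that rose with ROSI. With ROSI it read 8.27, 9.02, 9.03, 9.28 and 8.74 in SV129 cultures (replicates 1, 2, 3, 4 and 6) and 9.25, 9.37, 9.34 and 9.41 in C57BL/6J cultures (replicates 2, 3, 4 and 6). In control it read 8.23, 8.34, 8.00 and 8.00 in SV129 (replicates 1, 4, 5 and 6) and 8.27, 8.36, 8.15 and 8.39 in C57BL/6J (replicates 2, 3, 4 and 6). All ROSI cultures but SV129 replicate 1 lay above every control, and the C57BL/6J groups were far apart. Over both strains Thrb was 1.84-fold higher with ROSI (log2 difference 0.88 ± 0.11 SE, n = 9 and 8, limma with strain as covariate, Benjamini-Hochberg adjusted p = 9.62e-06). In this comparison 27.9% of all clusters passed an adjusted p of 0.01, the threshold used throughout (5004 of 17958). Of these clusters 58.4% were higher with ROSI, against 45.7% after quantile normalization and 47.3% after median centring of the arrays.

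Thra, which encodes the receptor prominent in heart, bone and brown fat, moved the other way and by less. It read 10.58, 9.96, 10.22, 10.33 and 10.59 in SV129 ROSI cultures and 10.22, 10.14, 10.07 and 10.21 in C57BL/6J ROSI cultures. The controls read 10.54, 10.69, 10.46 and 10.51 in SV129 and 10.57, 10.72, 10.78 and 10.44 in C57BL/6J. SV129 ROSI replicates 1 and 6 sat among the SV129 controls, while the other ROSI cultures of both strains were below every control. Thra fell with ROSI by 0.33 on the log2 scale over both strains (SE 0.083, 1.26-fold lower, limma adjusted p = 0.0038).

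Dio2, a dim gene whose values all lay below the array medians, fell with ROSI in both strains. Its ROSI values were 7.11, 7.05, 6.81, 6.61 and 6.73 in SV129 and 6.88, 6.45, 6.66 and 6.50 in C57BL/6J. The control values were 7.34, 7.56, 7.46 and 7.58 in SV129 and 7.69, 7.15, 7.08 and 7.77 in C57BL/6J. Within each strain every ROSI culture was below every control, though how many of all clusters separate in this way was not counted. The C57BL/6J controls split into replicates 2 and 6 above and replicates 3 and 4 below. The fall over both strains was 0.71 on the log2 scale (SE 0.10, 1.63-fold lower, limma adjusted p = 4.06e-05). Without SV129 ROSI replicates 1 and 6 the ROSI differences over both strains were 1.01 for Thrb, -0.43 for Thra and -0.74 for Dio2, all called.

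**Figure D1:**
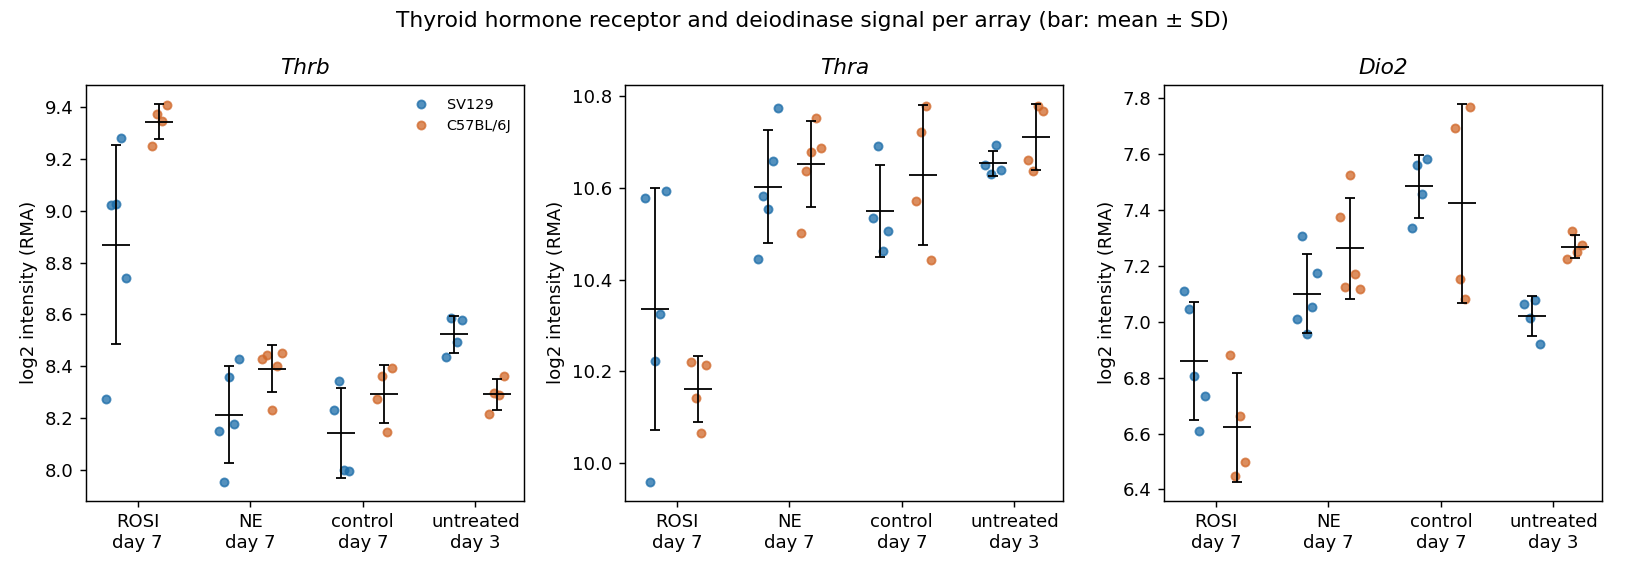
Log2 intensity of Thrb, Thra and Dio2 on each of the 35 arrays, by condition on the x axis and by strain in colour, with bars for the mean and SD of each group. With ROSI, Thrb reached 9.41, Thra went down to 9.96 and Dio2 to 6.45, with SV129 ROSI replicate 1 nearest to the controls for Thrb.

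By strain, the fits used all 35 arrays with a mean for each of the 8 groups. Within SV129, ROSI cultures against control differed by 0.72 for Thrb (SE 0.12, 1.65-fold, limma adjusted p = 2.35e-05), by -0.21 for Thra (SE 0.090, adjusted p = 0.073) and by -0.62 for Dio2 (SE 0.12, adjusted p = 1.59e-04). Within C57BL/6J the differences were 1.05 for Thrb (SE 0.13, 2.07-fold, limma adjusted p = 7.51e-08), -0.47 for Thra (SE 0.094, adjusted p = 1.67e-04) and -0.80 for Dio2 (SE 0.13, adjusted p = 5.74e-06). The share of clusters that passed was 20.6% in SV129 and 28.1% in C57BL/6J. Thrb and Dio2 thus passed in each strain and Thra in C57BL/6J. Without SV129 ROSI replicates 1 and 6 the SV129 differences were 0.97 for Thrb and -0.66 for Dio2, both still called, and Thra passed as well (-0.38, adjusted p = 3.78e-04). As these replicates were picked for lying nearest to control, their removal favours a larger difference. With a fit of the SV129 control and ROSI arrays alone, the SV129 calls of Thrb and Dio2 were lost (adjusted p = 0.038 and 0.022), in a fit that called 1 cluster of 17958. The Thrb call in SV129 was also lost without control replicates 5 and 6 and ROSI replicate 2 (0.54, adjusted p = 0.012).

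The size of the ROSI difference was then compared between strains, as the SV129 difference minus the C57BL/6J difference. It was -0.32 for Thrb (95% interval -0.68 to 0.03, limma adjusted p = 0.40), 0.25 for Thra (-0.01 to 0.52, adjusted p = 0.38) and 0.18 for Dio2 (-0.18 to 0.53, adjusted p = 0.68). In this test 0.206% of clusters passed. Without SV129 ROSI replicates 1 and 6 the differences shrank to -0.084 for Thrb, 0.087 for Thra and 0.14 for Dio2 (limma adjusted p = 0.87, 0.84 and 0.85). Leaving out SV129 arrays picked for lying nearest to control favours such shrinkage. With all arrays, a strain difference in the ROSI response of the 3 genes was not shown, and the intervals include 0. The SV129 ROSI cultures were uneven: against the SV129 control mean, Thrb was 0.13 higher in replicate 1, 0.59 in replicate 6 and 0.97 on average in replicates 2, 3 and 4. For Thra the differences were 0.03 in replicate 1, 0.04 in replicate 6 and -0.38 on average in the others, whereas Dio2 was lower in all 5, by -0.38 in replicate 1 and -0.75 in replicate 6, with -0.66 on average in the others.

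NE cultures gave smaller differences. Thrb read 8.15, 7.96, 8.36, 8.18 and 8.43 with NE in SV129 (replicates 1, 2, 4, 5 and 6) and 8.43, 8.44, 8.23, 8.40 and 8.45 in C57BL/6J (replicates 1, 3, 4, 5 and 6). Thra read 10.45, 10.58, 10.55, 10.66 and 10.77 with NE in SV129 and 10.50, 10.64, 10.68, 10.75 and 10.69 in C57BL/6J. The NE values of both receptor genes overlapped with the control values given above in each strain. Over both strains the difference from control was 0.08 for Thrb (95% interval -0.05 to 0.22, limma adjusted p = 0.68) and 0.04 for Thra (-0.07 to 0.15, adjusted p = 0.86).

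Dio2 read 7.01, 7.31, 6.96, 7.05 and 7.18 with NE in SV129 and 7.37, 7.12, 7.53, 7.17 and 7.12 in C57BL/6J. All SV129 NE cultures were below the 4 SV129 controls, while the C57BL/6J NE cultures lay inside the range of their controls. How many of all clusters separate between the SV129 groups was not counted. Over both strains Dio2 differed by -0.27 with NE (95% interval -0.47 to -0.08, limma adjusted p = 0.22), which did not pass. Limma called 0 of 17958 clusters in this comparison (0%), with 2053 (11.4%) at an unadjusted p under 0.05, and quantile normalization or a fit of all 35 arrays called 1. Within SV129 the Dio2 difference was -0.38 (SE 0.12, limma adjusted p = 0.086), where 0.212% of clusters passed, and it passed when arrays were weighted (-0.46, adjusted p = 0.0060), in a fit that called 1283 clusters instead of 38. Within C57BL/6J it was -0.16 (95% interval -0.41 to 0.08), and limma again called 0 clusters (0%), with 449 at an unadjusted p under 0.05. The NE difference of Dio2 between strains was -0.22 (95% interval -0.57 to 0.12, limma adjusted p = 0.72), and 0% of clusters passed that test.

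ROSI was also set directly against NE, using the same ROSI cultures as above. Thrb was 1.73-fold higher with ROSI (0.79 ± 0.10 SE, limma adjusted p = 1.92e-05), and its p ranked 139th among 17958 clusters, against 640th for ROSI against control. Thra was lower by -0.37 (SE 0.073, limma adjusted p = 4.44e-04, rank 2477) and Dio2 by -0.43 (SE 0.090, adjusted p = 7.65e-04, rank 2910). In this comparison 27.8% of clusters passed. Without SV129 ROSI replicates 1 and 6 the differences were 0.93 for Thrb, -0.46 for Thra and -0.48 for Dio2, all called. Every ROSI value of Dio2 in C57BL/6J was below every NE value, and in SV129 replicates 1 and 2 with ROSI lay inside the NE range.

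**Figure D2:**
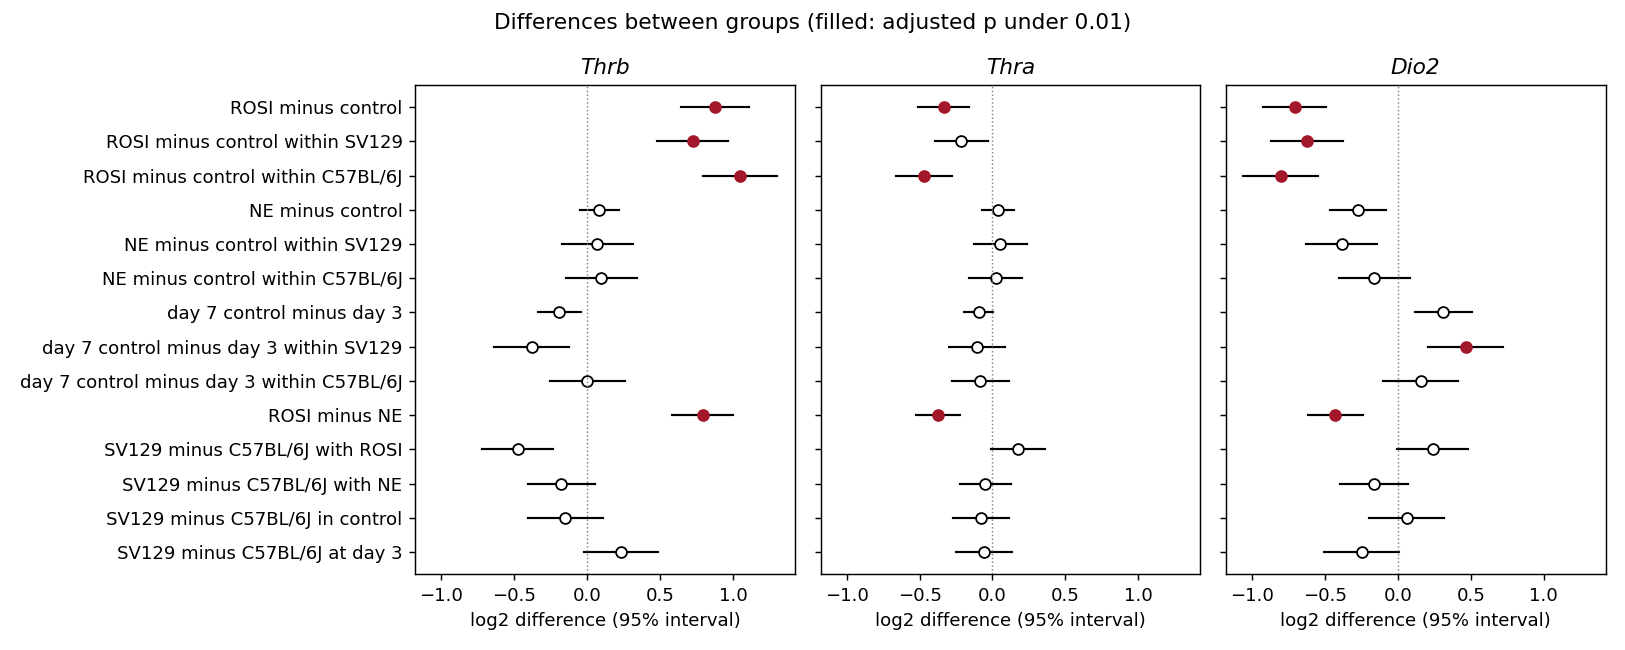
Log2 differences of Thrb, Thra and Dio2 with 95% intervals for 4 comparisons over both strains and for those within and between strains, with filled points where the adjusted p was under 0.01. Thrb rose with ROSI (0.88) while Thra (-0.33) and Dio2 (-0.71) fell, and the differences with NE were closer to 0.

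Time in culture was compared in cells without drug, using the control arrays again. On day 3, Thrb read 8.44, 8.59, 8.49 and 8.58 in SV129 (replicates 1, 3, 5 and 6) and 8.22, 8.30, 8.29 and 8.36 in C57BL/6J (replicates 2, 3, 4 and 6). Thra read 10.65, 10.63, 10.69 and 10.64 in SV129 and 10.66, 10.64, 10.78 and 10.77 in C57BL/6J. The SV129 day 7 controls of Thrb were all below the day 3 cultures, and the other receptor groups overlapped in range. Over both strains day 7 control cultures against day 3 differed by -0.19 for Thrb (SE 0.071, limma adjusted p = 0.060) and by -0.09 for Thra (SE 0.047, adjusted p = 0.17). Within SV129 the Thrb difference was -0.38 (SE 0.13, limma adjusted p = 0.028), and it passed with quantile normalization, median centring, array weights or the compared arrays alone (adjusted p from 6.94e-06 to 0.0099). The weighted fit called 5225 clusters instead of 2391. Within C57BL/6J the Thrb difference was 0.00 (95% interval -0.25 to 0.26).

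Dio2 on day 3 read 7.07, 7.02, 7.08 and 6.92 in SV129 and 7.23, 7.32, 7.25 and 7.27 in C57BL/6J. All SV129 day 7 controls were above the day 3 cultures, and in C57BL/6J control replicates 2 and 6 were above and replicates 3 and 4 below. Over both strains day 7 cultures were higher by 0.31 (95% interval 0.11 to 0.51, limma adjusted p = 0.020), short of the threshold, and 15.3% of clusters passed. Without C57BL/6J control replicate 3 the difference was 0.36 (adjusted p = 0.0051), and without replicate 4 it was 0.37 (adjusted p = 0.0023). Within SV129 Dio2 rose by 0.46 (SE 0.13, 1.38-fold, limma adjusted p = 0.0075), where 13.3% of clusters passed. That call was lost when any of day 3 replicates 1, 3, 5 or 6 or control replicates 4, 5 or 6 was left out (adjusted p from 0.013 to 0.030). Within C57BL/6J the difference was 0.16 (95% interval -0.10 to 0.41), where 4.04% of clusters passed. The difference between strains in the day effect was 0.31 for Dio2 (95% interval -0.06 to 0.67, limma adjusted p = 0.40) and -0.38 for Thrb (-0.74 to -0.02, adjusted p = 0.27), with 0.529% of clusters called. The Thrb interaction passed with array weights (-0.44, limma adjusted p = 0.0027), in a fit that called 2301 clusters instead of 95.

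Strains were compared within each condition, as SV129 minus C57BL/6J, and limma called none of the 3 genes at an adjusted p of 0.01. The one nearest to the threshold was Thrb with ROSI, at -0.47 (SE 0.12, limma adjusted p = 0.013), where 2.52% of clusters passed. It passed with quantile normalization or median centring and when SV129 ROSI replicate 2, 3 or 4 was left out (-0.51, -0.51 and -0.58, adjusted p = 0.0073, 0.0085 and 9.73e-04). Without SV129 ROSI replicates 1 and 6 the difference was -0.23 (limma adjusted p = 0.23). On day 3, where 0.785% of clusters passed, Thrb differed by 0.23 (95% interval -0.02 to 0.49, limma adjusted p = 0.42) and Dio2 by -0.25 (-0.51 to 0.01, adjusted p = 0.37). Both passed when the 8 day 3 arrays were fitted alone (limma adjusted p = 0.0095 for Thrb and 0.0046 for Dio2), in a fit that called 1483 clusters instead of 141. On day 3 the strains did not overlap for either gene, and the share of all clusters without overlap was not counted. In control, where 0.407% of clusters passed, and with NE, where 1.71% did, the strain differences of the 3 genes lay between -0.18 and 0.06.

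Ordered by group mean, Thrb ran from C57BL/6J ROSI (9.34 ± 0.07 SD, n = 4) and SV129 ROSI (8.87 ± 0.38, n = 5) through SV129 day 3 (8.52 ± 0.07, n = 4) to SV129 control (8.14 ± 0.17, n = 4), with the other groups between 8.21 and 8.39. Thra ran from C57BL/6J day 3 (10.71 ± 0.07, n = 4) to SV129 ROSI (10.34 ± 0.26, n = 5) and C57BL/6J ROSI (10.16 ± 0.07, n = 4), with the other groups between 10.55 and 10.65. Dio2 was highest in SV129 control (7.49 ± 0.11, n = 4) and C57BL/6J control (7.42 ± 0.36, n = 4), lay between 7.02 and 7.27 in the day 3 and NE groups, and was lowest in SV129 ROSI (6.86 ± 0.21, n = 5) and C57BL/6J ROSI (6.62 ± 0.20, n = 4). For each gene, every pair of neighbouring groups in this order overlapped in range. These are signals of different probes, so levels were not set against each other between genes.

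The deiodinases gave low signal. Dio2 read between 6.45 and 7.77, below the lowest array median of 8.03, and its lowest ROSI values were close to the lower quartile of 6.44. Dio1, which also makes active hormone in liver and kidney, read between 4.79 and 5.21 on all arrays, below the lower quartile of all values. Dio3, which inactivates the hormone, read between 5.65 and 6.95. Dio1 and Dio3 did not pass in any of the 4 comparisons over both strains: with ROSI, Dio1 differed from control by 0.05 and Dio3 by -0.13. On day 3 Dio3 differed by -0.42 between SV129 and C57BL/6J (limma adjusted p = 0.094).

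A second cluster was annotated to both Nr1d1 and Thra, whose genes overlap at their 3′ ends on opposite strands. Nr1d1 encodes the circadian repressor REV-ERBα. Because the cluster carries both symbols it was not counted as Thra. Without drug it was higher on day 7 than on day 3 (0.46 ± 0.10 SE, limma adjusted p = 0.0037), whereas the Thra cluster did not pass, and with ROSI against control it differed by 0.13 (adjusted p = 0.46) while Thra fell. In day 7 control cultures it read 11.20, 11.01, 11.60 and 11.49 in SV129 and 11.04, 10.62, 10.68 and 11.29 in C57BL/6J. On day 3 all 8 cultures lay between 10.58 and 10.71. The C57BL/6J controls with high Dio2, replicates 2 and 6, had the higher values of this cluster and the lower values of Thra, and replicates 3 and 4 the reverse.

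After removing the group means, the correlation over the 35 arrays was -0.57 between Thra and the Nr1d1 and Thra cluster, and 0.49 between Dio2 and that cluster. Nr1d2, a paralogue of Nr1d1 that lies near Thrb and was added after its values were seen, correlated with the same cluster at 0.75. It was also higher in day 7 control cultures than on day 3 (0.56 ± 0.087 SE, limma adjusted p = 2.10e-04). Nr1d2 correlated with Thrb at -0.01 and with Dio2 at 0.39. The arrays share groups, strains and processing, so these are descriptions. Between members, the within-group correlations were -0.30 for Thrb and Thra, -0.34 for Thrb and Dio2 and -0.24 for Thra and Dio2, against -0.74, -0.77 and 0.48 over all arrays. The SV129 ROSI group had the widest spread of any group for Thrb (SD 0.38) and Thra (SD 0.26). Within it, the uneven replicates 1 and 6 had the lowest Thrb and the highest Thra values. The within-group value for Thrb and Thra therefore carries this contrast, and a relation outside that group was not tested.

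**Figure D3:**
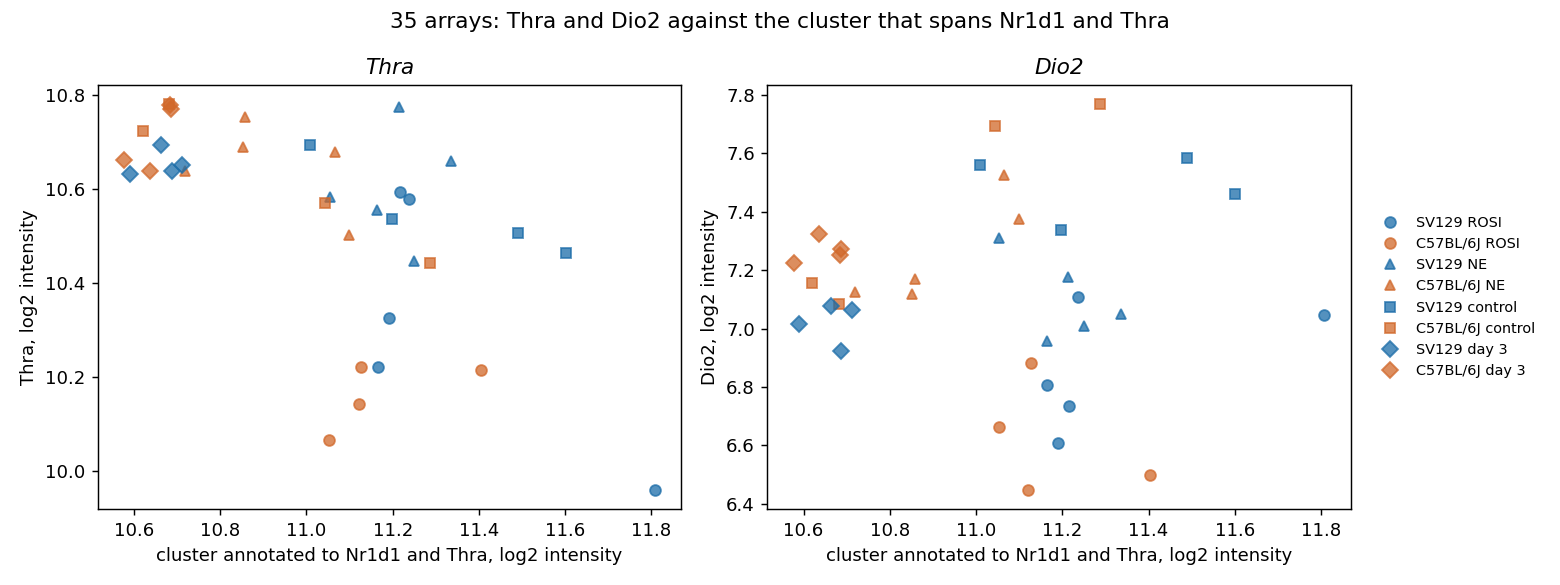
Log2 intensity of Thra (left) and Dio2 (right) on the y axis against the cluster annotated to both Nr1d1 and Thra on the x axis, with 1 point for each of 35 arrays, coloured by strain and shaped by condition. Day 3 arrays lie at the low end of the x axis (10.58 to 10.71), and the within-group correlations were -0.57 for Thra and 0.49 for Dio2.

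A list of 56 genes of hormone supply, receptor partners, cofactors, responses and adrenergic signalling was followed beside the members, of which 46 had a cluster with 1 symbol and 10 were not analysed here. With ROSI against control, 19 of the 46 were higher, 6 lower and 21 did not pass (54.3% passed, against 27.9% of all clusters), and the median difference was 0.10, against 0.01 over all clusters. The members are in this count, and the list was chosen with earlier results of these data known. The shares are therefore a description, not a test of the pathway. Within SV129 18 were higher and 4 lower (47.8% passed, against 20.6% of all clusters), and within C57BL/6J 19 were higher and 7 lower (56.5%, against 28.1%).

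Among hormone transporters and binding proteins, 1 of 6 measured genes rose with ROSI and 1 fell, in a comparison where 27.9% of all clusters passed. Slc16a10, a transporter of thyroid hormone and aromatic amino acids, rose by 0.54 (SE 0.085, limma adjusted p = 7.41e-05), and Slc7a8, an amino acid exchanger that also carries the hormone, fell by 0.63 (SE 0.13, adjusted p = 0.0011). Of the 4 genes for ubiquitination of the DIO2 protein, the ligase adaptor Wsb1 fell by 0.78 (SE 0.096, limma adjusted p = 8.07e-06), while the ligase Marchf6 (0.34) and the deubiquitinase Usp20 (0.29) rose, and Usp33 differed by 0.10 without passing. These genes act on the protein, which the arrays do not measure.

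Among RXR partners, Rxrg rose 3.26-fold (1.70 ± 0.19 SE, limma adjusted p = 3.96e-06) and Rxrb by 0.31, whereas Rxra differed by -0.04 (adjusted p = 0.54). Of the corepressor genes, Tbl1xr1 rose by 0.38 and Hdac3 (0.09) and Tbl1x (-0.03) did not pass (1 of 3 passed, against 27.9% of all clusters). Of the 6 coactivator genes measured, Ppargc1a, a coactivator of PPARγ and the thyroid receptors, rose 3.59-fold (1.85 ± 0.26 SE, limma adjusted p = 2.47e-05), Ncoa1 rose by 0.40 and Ncoa3 fell by 0.24.

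Of the 9 measured genes known to respond to thyroid hormone, 7 rose with ROSI, 1 fell and 1 did not pass. Their median was 0.74, in a comparison where 27.9% of all clusters passed. Thrsp, a lipogenic gene named for its response to the hormone, rose 3.90-fold (1.96 ± 0.25 SE, limma adjusted p = 9.92e-06). Ucp1, the uncoupling protein of brown fat, rose 2.43-fold (1.28 ± 0.16 SE, limma adjusted p = 7.84e-06), and Acaca (0.89), Me1 (0.89), Fasn (0.74), Ucp3 (0.71) and Gpd2 (0.59) rose as well. Atp2a2, the calcium pump SERCA2, fell by 0.15, and Hr, a corepressor gene induced by the hormone, differed by 0.12 without passing. Several of these genes, such as Fasn, Acaca, Me1 and Ucp1, also answer to lipogenic and PPARγ signals, and the list does not tell these apart.

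Of the 10 measured genes of adrenergic and cAMP signalling, Prkaca (0.67) and Prkar2b (0.59), subunits of protein kinase A, and Crem (0.34), a cAMP-responsive factor, rose with ROSI and 7 did not pass. This count is close to the share of all clusters that passed (27.9%). With NE against control, 0 of the 46 list genes passed in limma, but so did 0 of all 17958 clusters, so this count says nothing particular about the list. Of the adrenergic and cAMP genes, Nr4a3 differed by 0.73 ± 0.27 SE with NE, Nr4a2 by 0.26, Nr4a1 by 0.18 and Crem by 0.12. Pde4d (0.19), Creb1 (0.17), Prkar2b (0.17), Prkaca (0.15) and Pde4b (0.14) were also above control, and Sik1 (-0.05) was below. The list median was 0.06, against 0.01 over all clusters. In day 7 control cultures against day 3, 6 of the 46 were higher and 2 lower (17.4% passed, against 15.3% of all clusters). On day 7 Nr4a2 (0.47), Crem (0.34), Nr4a1 (0.23), Hr (0.21), Ep300 (0.15) and Slc3a2 (0.14) were higher, and Prkaca (-0.24) and Ncoa1 (-0.23) lower. With ROSI against NE, 17 rose and 8 fell (54.3% passed, against 27.8% of all clusters).

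**Figure D4:**
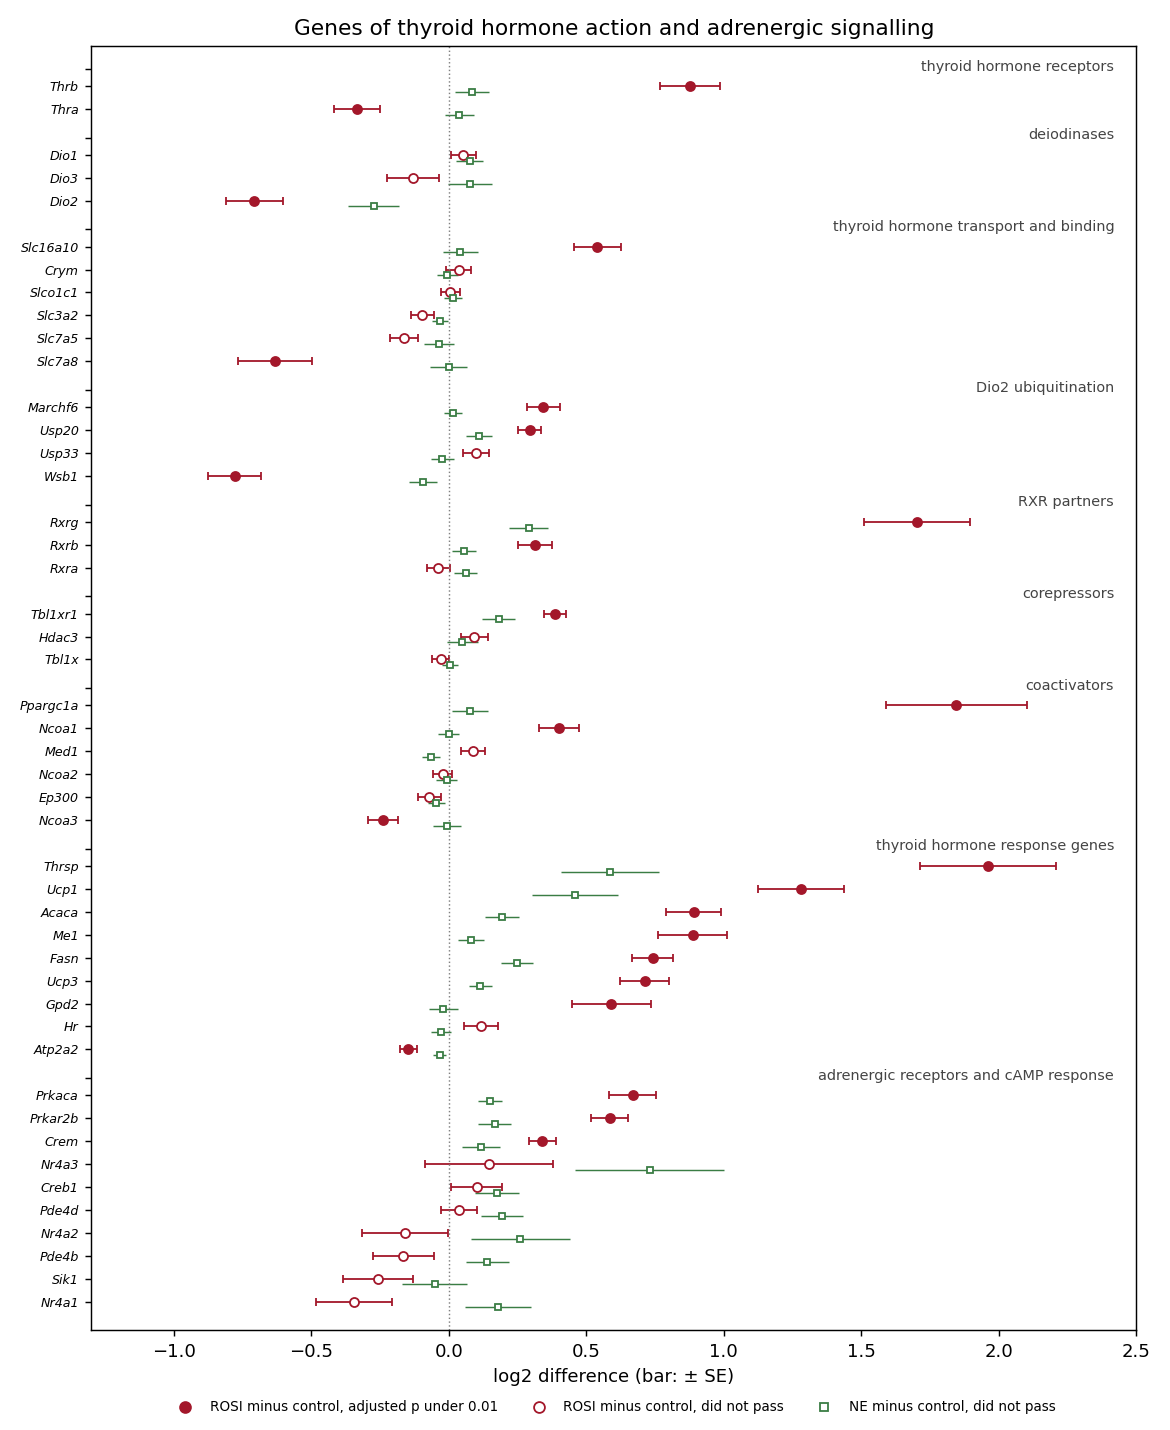
Log2 difference with its SE for each of the 46 measured list genes, grouped by role, for ROSI against control (circles, filled where the adjusted p was under 0.01) and NE against control (squares, of which 0 passed, with 0% of all clusters passing). Thrsp (1.96), Ppargc1a (1.85) and Rxrg (1.70) lie farthest to the right and Wsb1 (-0.78) and Dio2 (-0.71) farthest to the left.

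Markers of cell types moved in the same comparisons. With ROSI, 6 of 7 measured adipocyte markers rose and 1, Lep, did not pass, and their mean log2 signal per array lay between 10.34 and 11.43, against 9.48 to 10.28 in control. Of 5 preadipocyte markers 4 fell and 1 did not pass, with means of 9.91 to 10.93 with ROSI, against 10.78 to 11.13 in control. In a bulk culture fewer cells of a type and less RNA per cell cannot be told apart, and the part of these shifts in the member results was not tested. On day 7 without drug, 5 of 6 macrophage markers were higher than on day 3, where 15.3% of all clusters passed. Their means were 8.51 to 8.89, against 7.74 to 8.27 on day 3. In the same comparison 2 of 5 preadipocyte markers, Pdgfra (-0.29) and Cd34 (-0.85), were lower. Within SV129, where the Dio2 and Thrb differences with time were larger, 4 of 7 adipocyte markers were lower on day 7. Their means were 9.48 to 9.90, against 10.20 to 10.35 on day 3, and 13.3% of all clusters passed. In C57BL/6J 0 of 7 passed, against 4.04% of all clusters. Between strains on day 3, beside the Thrb and Dio2 differences, 3 of 7 adipocyte markers were higher in SV129, where 0.785% of all clusters passed. Their means were 10.20 to 10.35 in SV129, against 9.65 to 9.77 in C57BL/6J. With ROSI, beside the Thrb difference between strains, 1 of 7 adipocyte markers was lower and 2 of 5 preadipocyte markers higher in SV129. Of the macrophage markers, 2 of 6 were lower in SV129, and 2.52% of all clusters passed. Adipocyte means were 10.34 to 11.33 in SV129, against 11.35 to 11.43 in C57BL/6J. The part of these markers in the member differences was not tested. Endothelial markers had means of 8.10 to 8.36 with ROSI, against 8.16 to 8.43 in control, and skeletal muscle markers means of 7.49 to 7.73 with ROSI, against 7.31 to 7.45 in control. With ROSI, 1 of 6 macrophage markers (Itgam) and 1 of 4 endothelial markers (Tek) fell and 1 of 4 muscle markers (Des) rose, where 27.9% of all clusters passed.

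The genes whose profile was most like that of each member were found by Pearson's r over 35 arrays and 15620 clusters with 1 symbol. For Thrb they were Myo19 (0.98), B3galt2 (0.98), Baz2a (0.97), Pigl (0.97) and Nudt13 (0.97), and the most opposite were Nbl1 (-0.96), B4galt5 (-0.95) and Larp6 (-0.95). For Thra they were Tmtc1 (0.96), Wnt16 (0.95), Mmp23 (0.95), Cpxm1 (0.95) and Dennd2c (0.95), and the most opposite were Cox17 (-0.90), Atp2a3 (-0.89) and Plekha6 (-0.89). For Dio2 they were Elf1 (0.90), App (0.88), Hpse (0.87), Zdhhc20 (0.87) and Dok5 (0.87), and the most opposite were Fasn (-0.88), Etfb (-0.88) and Cmc2 (-0.87).

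These profiles follow the ROSI groups in large part, and the arrays share groups and processing. Over the 26 arrays without ROSI, r was 0.89 for Myo19 with Thrb, 0.87 for Tmtc1 with Thra and 0.88 for Elf1 with Dio2. It went down to 0.74 for Nudt13 with Thrb, 0.71 for Dennd2c with Thra and 0.72 for Hpse with Dio2. The opposite genes Nbl1, Cox17 and Fasn gave -0.73, -0.53 and -0.74 on these arrays. Within groups, r was 0.92 for Myo19, 0.92 for Tmtc1 and 0.63 for Elf1, and went down to 0.465 for Zdhhc20 with Dio2. For the opposite genes it was -0.79 for Nbl1 with Thrb, -0.70 for Cox17 with Thra and -0.56 for Fasn, the fatty acid synthase gene, with Dio2.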

How the data were processed

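RNA of 35 cultures was measured on Mouse Exon 1.0 ST arrays. The deposited values are log2 intensities of transcript clusters, which the authors computed by RMA in Affymetrix Power Tools, a method that corrects background, equalises arrays and condenses probes into 1 value; the sources used here state no version. Values were used as deposited, and all columns were mapped to samples from their labels (0 columns unused). Of 17958 clusters, 15621 had 1 gene symbol in the platform annotation, 1370 several and 967 none. A list gene with several clusters (2 genes) was read from the brightest. No pair of arrays was identical (0 pairs). Arrays have no sequencing depth, so the number of arrays and their spread limit the precision.

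Fits used limma 3.58.1 in R 4.3.3 (tables read by data.table, version 1.17.8), over all clusters, with two-sided tests and Benjamini-Hochberg adjustment at 0.01. Comparisons over both strains used the arrays of the 2 conditions with strain as covariate. Those within or between strains, and interactions, used 8 group means over 35 arrays. The fits were tested on simulated data. Figures were drawn with Python 3.11.15 and matplotlib 3.10.9. The members, lists and tests were chosen with earlier results of these data known. The genes named are the members, the listed genes, and the 5 most and 3 least similar profiles. Alternatives were quantile normalization, median centring, array weights, an intensity trend, leaving out the dimmest 25% of clusters, other array sets, no strain term, a replicate block, and leaving out arrays. Replicate numbers did not pair the arrays (41 pairs of the same number, median correlation of deviations -0.01).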

Additional observations from a re-analysis of the deposited data

Results flagged for a closer look

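In C57BL/6J NE cultures, Thrb in replicate 4 (8.23) stood below the other 4 cultures of its group, with a gap that took a share of 0.781 of the group's range. Of 24 groups tested for such a gap (3 genes in 8 groups), chance alone would mark about 1 in 20.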

How the results depend on the processing

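The ROSI against control differences of Thrb and Dio2 over both strains kept their direction and their side of the threshold in all alternatives run, with Thrb between 0.82 and 1.01 and Dio2 between -0.75 and -0.65. Over the member results, 375 of 408 values under other settings and 591 of 621 with 1 array left out kept direction and side, and 33 and 30 did not. Array number and culture spread limit what could be called, and dim genes lie close to background. The cause of the changes below was not tested.

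With a replicate block by strain and number, in which arrays without a partner carry no weight, Thra with ROSI against control was -0.30 and did not pass (adjusted p = 0.047). In the same fit ROSI against NE gave 0.77 for Thrb, -0.35 for Thra and -0.44 for Dio2, none called, with 0 clusters called in all, Dio2 on day 7 against day 3 within SV129 was 0.48, and the Thrb interaction of NE with strain was 0.0184. The numbers do not pair the arrays (3 of 33 arrays correlated best with their own number), and no block was possible between strains.

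Thrb on day 7 against day 3 within SV129 passed with quantile normalization (-0.41), median centring (-0.40), array weights (-0.47) and the compared arrays alone (-0.38). Within C57BL/6J it was -0.0483, -0.0396 and -0.023 in the first 3 of these. Thrb in SV129 against C57BL/6J with ROSI passed with quantile normalization (-0.47), median centring (-0.49) and without SV129 control replicates 5 and 6 and ROSI replicate 2 (-0.51). Dio2 on day 7 against day 3 within SV129 did not pass with median centring (0.44) or without those 3 arrays (0.43). Array weights called Dio2 with NE within SV129 (-0.46) and the day by strain interaction of Thrb (-0.44), and turned the Thrb interaction of NE with strain (0.0411). Thra with NE within C57BL/6J was -0.0037 with median centring and -0.011 with array weights. The compared arrays alone lost Thrb (0.72) and Dio2 (-0.62) with ROSI within SV129, in a fit that called 1 cluster. They called Thrb (0.23) and Dio2 (-0.25) between strains on day 3, in a fit that called 1483 clusters. Without SV129 ROSI replicates 1 and 6, which were picked for lying nearest to control, Thra within SV129 was -0.38 and passed. Without the other 3 arrays Thrb with ROSI within SV129 was 0.54 and did not pass, NE within SV129 gave -0.074 for Thrb and -0.0105 for Thra, and the Thra interactions were -0.0333 with NE and 0.0425 with day.

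Leaving out 1 array at a time, values ranged from 0.27 to 0.37 for Dio2 on day 7 against day 3, 0.43 to 0.51 for the same within SV129, -0.58 to -0.33 for Thrb between strains with ROSI, -0.0539 to 0.175 for Dio2 between strains in control, -0.0395 to 0.0731 for Thra with NE and -0.0313 to 0.0511 for Thrb with day within C57BL/6J, -0.0843 to 0.0283 for the day interaction of Thra, and -0.081 to 0.0395 for Thrb and -0.019 to 0.0935 for Thra in the NE interaction.

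Counts of clusters called moved by over 1.5 times in some settings. The block gave 2863 for ROSI against control (5004 in the fit reported) and 1415 for day (2745). NE against control gave 0 to 1. Within SV129, ROSI gave 1 to 5284 (3695), NE 0 to 1283 (38) and day 675 to 5225 (2391), and day within C57BL/6J gave 585 to 2075 (726). Between strains the ranges were 149 to 1873 on day 3 (141), 0 to 2413 in control (73), 300 to 1898 with NE (307) and 8 to 902 with ROSI (452). The interactions gave 1 to 407 for ROSI (37), 0 to 159 for NE (0) and 3 to 2301 for day (95).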
